A study of Mus musculus with 2 samples.

Results

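Sjögren's disease (SjD) is marked by autoantibodies against a small set of proteins, and 6 genes that code for such proteins were followed in salivary gland cells of 2 mouse strains. They are *Trim21* (Ro52), *Ro60* (the Ro ribonucleoprotein), *Ssb* (La), *Chrm3* (the muscarinic receptor M3), *Sptan1* (alpha-fodrin) and *Ica1* (islet cell autoantigen ICA69). The genes were taken by symbol from what is known of these antigens, and all 6 were found among the 50768 genes listed in both libraries. Levels were read from barcodes with at least 500 unique molecular identifiers (UMIs, tags that count captured RNA molecules) and at least 300 genes, which left 6500 barcodes in NOD/ShiLtJ and 7014 in CD1.

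The scRNAseq compared 1 library of NOD/ShiLtJ, an inbred strain that develops SjD-like sialadenitis and diabetes, with 1 library of CD1, an outbred strain used as the control. Each library came from the pooled submandibular glands (SMG) and neighbouring sublingual glands of female mice aged 20 weeks, 4 per pool by the methods of the study and 3 by the labels, with no treatment and no engineered allele in either strain. Cells carrying EpCAM (epithelial) or Ter119 (erythroid) were depleted, which takes away the secretory cells that carry muscarinic receptors in an intact gland, and 7 NOD and 61 CD1 barcodes were epithelial-like by markers. With 1 pool per strain there is no replicate, no difference could be tested, and strain cannot be told apart from pool or library. All intervals are exact 95% intervals that cover counting error alone, because UMIs of 1 library do not measure the spread between mice.

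As background, the Ro and La proteins work on RNA. Ro60 binds Y RNAs and misfolded small RNAs, and La holds the 3′ ends of new RNA polymerase III transcripts. Trim21 is a ubiquitin ligase that binds the Fc part of antibodies inside cells and is itself induced by interferon. The other antigens have no shared role. M3 receptors couple acetylcholine to fluid secretion through Gq, alpha-fodrin is the non-erythroid alpha subunit of the spectrin skeleton and a target of calpains, and ICA69 is a BAR-domain protein of the Golgi and secretory granules.

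In the GENCODE M21 annotation of GRCm38, which is not the build the counts were made on, the genes lie on 5 chromosomes. *Trim21* lies at chr7:102557921-102565486, *Ro60* at chr1:143750790-143777068, *Ssb* at chr2:69861562-69871846, *Sptan1* at chr2:29965560-30031451 and *Ica1* at chr6:8630527-8778488, and *Chrm3*, the longest of them, on chromosome 13.

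Barcodes were placed in a lineage when they held at least 3 UMIs and at least 2 genes of a marker list and 3 times as many UMIs of it as of any other list. The suffix "-like" marks names rebuilt here. T-like (1863 in NOD and 75 in CD1), NK-like (509 and 356), macrophage-like (726 and 2963) and endothelial-like barcodes (1071 and 2889) were present in both libraries in numbers of at least 50, and strains were compared within these 4 lineages. B-like (846), plasma-like (50) and fibroblast-like barcodes (58) reached that number in NOD alone, and epithelial-like barcodes (61) in CD1 alone. The epithelial-like barcodes were led by kallikrein genes and had 8 of 12 epithelial markers raised, but none among their leading 10 genes. No lineage had a marker of another list among its leading 10 genes. The kept barcodes held 43439635 UMIs in NOD (median 5719.5 per barcode) and 49420810 in CD1 (median 6495). Macrophage-like barcodes were shallower in NOD (median 3396.5 UMIs) than in CD1 (median 6974). In all, 18 barcode sequences were kept in both libraries.

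Summed over all kept barcodes, *Ica1*, *Ro60*, *Sptan1* and *Chrm3* stood lower in NOD and *Trim21* and *Ssb* stood higher. The shares of all genes lower or higher in these sums were not computed, so the directions describe single genes. *Ica1* stood at 22.6 counts per 1000000 UMIs (CPM) in NOD and 61.6 in CD1, a log2 ratio of NOD over CD1 of -1.45 (-1.55 to -1.34). *Ro60* stood at 32.5 and 53.8 CPM (log2 ratio -0.73) and *Sptan1* at 168 and 250.4 CPM (-0.58). These sums also carry the mix of cells, since fewer cells of a type and less RNA per cell cannot be told apart in them. Among lineages of at least 50 barcodes, *Ica1*, *Ro60* and *Sptan1* stood highest in endothelial-like barcodes, which were 16.5% of NOD and 41.2% of CD1. Within that lineage the 3 log2 ratios were -0.04, -0.11 and 0.05. How much of each sum came from the mix of cells was not tested.

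**Figure D1:**
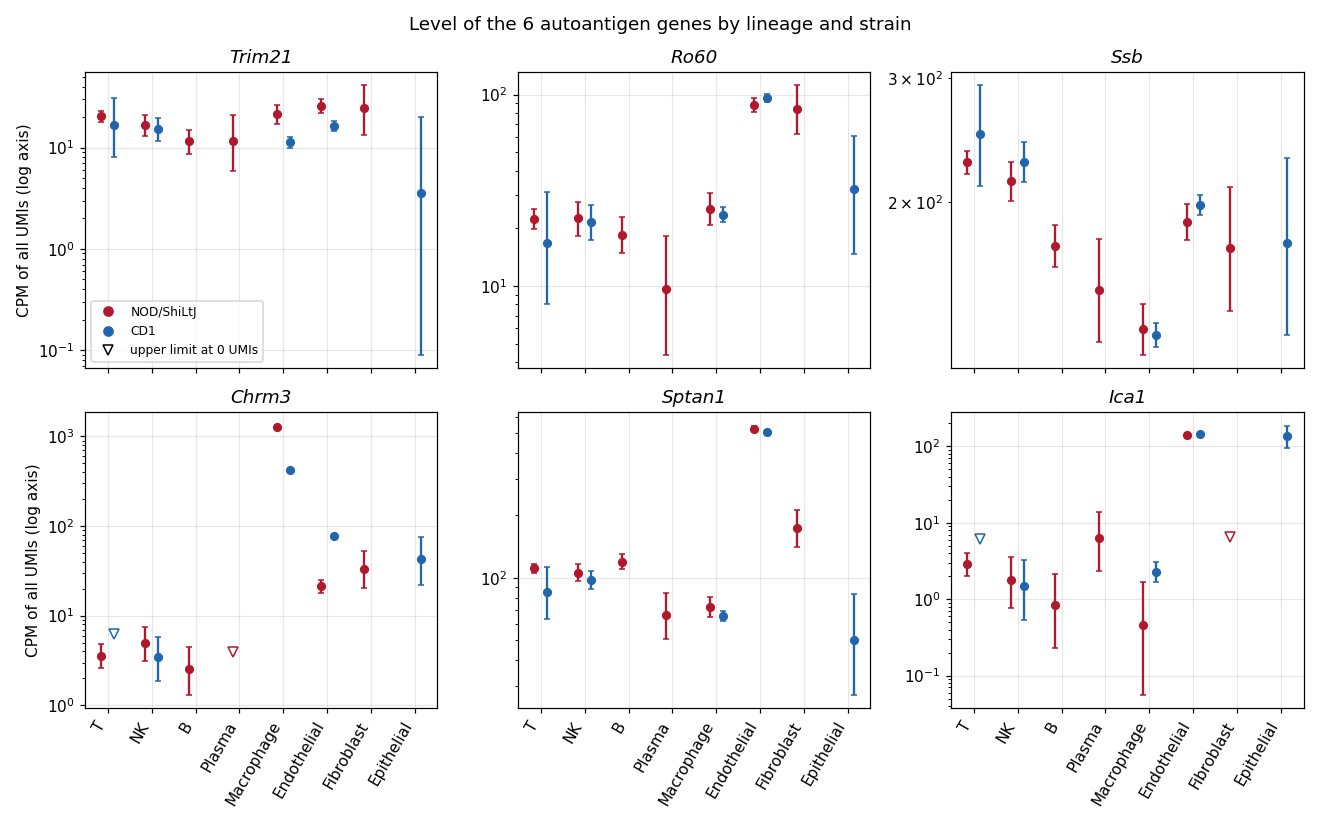
Level of each gene (CPM of all UMIs of the lineage, log axis, a separate scale per panel) in lineages with at least 50 barcodes in a library, NOD/ShiLtJ in red and CD1 in blue. Points are sums over the barcodes of 1 library, bars are 95% Poisson intervals and open triangles give the upper limit where no UMI was seen. *Sptan1* and *Ro60* stand highest in endothelial-like barcodes, *Ica1* in endothelial-like and epithelial-like barcodes and *Chrm3* in macrophage-like barcodes, whereas *Trim21* and *Ssb* vary less between lineages.

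Within the 4 lineages, the strains differed by at least 2-fold for *Chrm3* and, at a few UMIs, for *Ica1*. In macrophage-like barcodes 1 of 6 genes was past this fold with NOD higher, beside 8.31% of all 14626 genes with at least 20 UMIs, and 1 with NOD lower, beside 5.64% (13.9% in either direction). In endothelial-like barcodes 0 of 6 were past it with NOD higher and 1 with NOD lower, beside 7.93% and 4.2% of 14317 genes (12.1% in either direction). In T-like barcodes 0 of 6 were past it, beside 9.39% of 12765 genes with NOD higher and 8.29% with NOD lower (17.7% together). A count of 0 was put at 3 UMIs, worth 5.02 CPM in CD1 T-like barcodes. The T-like share with NOD lower can therefore include genes with few UMIs in NOD and none in CD1. In NK-like barcodes 0 of 5 were past it, beside 5.91% and 4.17% of 11909 genes (10.1% together).

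Intervals lay wholly above 0 for 2 genes in macrophage-like barcodes and 1 in endothelial-like barcodes, where 24.4% and 28.1% of all genes did so. They lay wholly below 0 for 1 gene in each, where 13.2% and 19.0% of all genes did so. In T-like and NK-like barcodes no member's interval left out 0, where 11.5% and 19.7% of all genes had an interval above it and 7.02% and 14.5% one below it. As a group, then, the 6 genes were past the fold about as often as genes in general, and the values below belong to single genes.

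**Figure D2:**
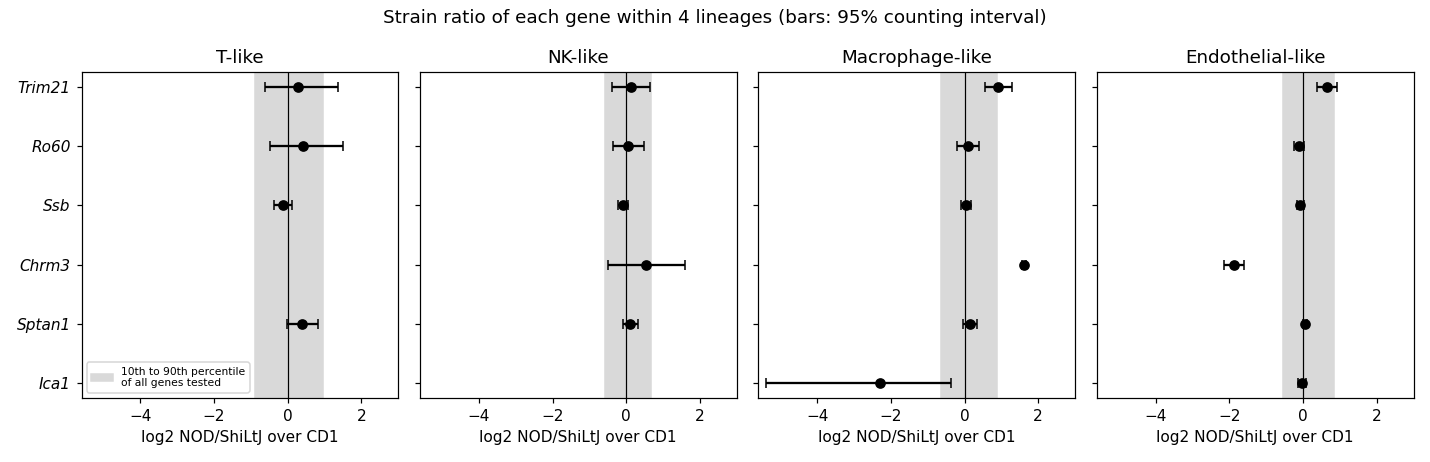
Log2 ratio of NOD/ShiLtJ over CD1 for each gene within the 4 lineages present in both libraries, with 95% conditional binomial intervals. The grey band spans the 10th to 90th percentile of all genes tested in that lineage. *Chrm3* lies right of the band in macrophage-like barcodes (1.62) and left of it in endothelial-like barcodes (-1.86), and genes without enough UMIs, or with no UMI in a library, are not drawn.

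*Chrm3* had the largest strain differences of the 6 genes, apart from that of *Ica1* on few UMIs, and their direction was not the same in macrophage-like and endothelial-like barcodes. In macrophage-like barcodes it stood at 1284 CPM in NOD (5545 UMIs, 1251 to 1319) against 417 CPM in CD1 (8372 UMIs, 409 to 426). This made NOD 3.08-fold higher, a log2 ratio of 1.62 (1.57 to 1.67), and 4.11% of all genes tested in the lineage had a higher ratio. In endothelial-like barcodes the order turned, with 21.2 CPM in NOD (128 UMIs, 17.7 to 25.2) against 77.1 in CD1 (1494 UMIs, 73.2 to 81.1), a log2 ratio of -1.86 (-2.14 to -1.60). The macrophage-like and endothelial-like levels did not overlap in either strain.

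Outside these lineages *Chrm3* was low or rested on few barcodes. NOD B-like, T-like and NK-like barcodes stood at 2.53, 3.59 and 4.96 CPM, and these intervals overlapped. Of the 22 UMIs in NOD NK-like barcodes, 19 came from 1 barcode. No UMI was seen in the 75 CD1 T-like barcodes, where the upper limit is 6.18 CPM, above the NOD value, so no fold can be given. NOD dendritic-like barcodes, 33 in number, held 168 UMIs (409.5 CPM, 350 to 476), below NOD macrophage-like barcodes. CD1 epithelial-like barcodes held 12 UMIs (42.8 CPM, 22.1 to 74.8). CD1 fibroblast-like barcodes reached 200 CPM, but 27 of their 30 UMIs were in a single barcode.

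The UMIs of *Chrm3* were spread unevenly over macrophage-like barcodes. At least 1 UMI was present in 45.7% of NOD and 41.2% of CD1 barcodes, at least 10 UMIs in 24.8% and 9.35%, and at least 50 in 3.03% and 0.135%. The tenth of barcodes with most UMIs held 57.5% of them in NOD and 62.4% in CD1, and the highest barcode held 155 and 94. After each barcode was thinned to 2000 UMIs, leaving out 255 NOD and 735 CD1 barcodes below that depth, 56.1% of NOD (51.4 to 60.6) and 33.6% of CD1 (31.7 to 35.6) had a UMI. In NOD B-like barcodes, a lineage low in the gene, the thinned share was 0.58% at a median depth of 5632 UMIs. In endothelial-like barcodes it was 2.18% in NOD (19 of 873 barcodes) and 9.08% in CD1 (217 of 2389). In macrophage-like barcodes NOD was therefore higher both in the share of barcodes with the transcript at equal depth and in the number of UMIs where it was found, with medians of 11 and 4 UMIs in barcodes that had any.

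**Figure D3:**
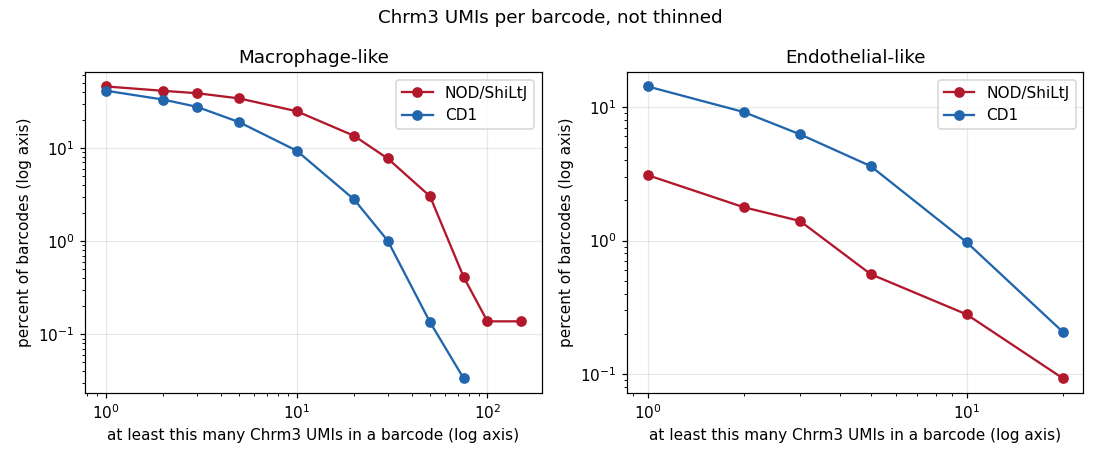
Percent of macrophage-like (left) and endothelial-like (right) barcodes with at least a given number of *Chrm3* UMIs, both axes logarithmic, without thinning. In macrophage-like barcodes the curves start close together, at 45.7% and 41.2% for 1 UMI, and part towards high counts. In endothelial-like barcodes CD1 is above NOD at each point drawn, from 14.2% against 3.08% for 1 UMI.

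To see which cells carried the transcript, the kept barcodes of both libraries were clustered on variable genes from which the 6 genes were left out. *Chrm3* was concentrated in a macrophage-like cluster led by *Cx3cr1*, *Frmpd4* and *Apobec1* (255 NOD and 1698 CD1 barcodes), where it stood at 1653 CPM in NOD against 457 in CD1, a log2 ratio of 1.85 (1.80 to 1.91). A cluster led by salivary secretory transcripts such as *Scgb1b27* and *Mucl2*, which was given no name although 4 macrophage markers were raised in it (82 and 238 barcodes), stood at 2143 and 553 CPM, a log2 ratio of 1.95 (1.78 to 2.13). The cluster led by *S100a9*, *Grm8* and *Plac8* (125 and 50 barcodes) stood at 157 and 43.8 CPM, a log2 ratio of 1.84 (1.30 to 2.43). The order was the other way in the unnamed cluster led by the division genes *Mki67*, *H1f5* and *Top2a*, at 197 CPM in NOD (9 of 68 barcodes with a UMI) against 456 in CD1 (36 of 105), a log2 ratio of -1.21 (-1.47 to -0.97). Of the barcodes called dividing in NOD, 97 were T-like and 35 macrophage-like, and among dividing macrophage-like barcodes NOD stood higher, at 1133 against 581 CPM (log2 ratio 0.96, 0.79 to 1.13). The shallow macrophage-like cluster led by *Aif1*, *Wfdc17* and *Fth1* (333 and 913 barcodes) held 4 and 19 UMIs in all, or 7.16 and 11.3 CPM, and it was the largest macrophage-like cluster in NOD, whereas the *Cx3cr1* cluster was the largest in CD1. Among clusters with at least 50 barcodes in both libraries, NOD stood higher in 3 of the 4 with at least 200 UMIs outside the endothelial-like ones. Levels in smaller clusters were not compared.

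In endothelial-like barcodes the size of the strain ratio varied between clusters. In a cluster led by *Mecom*, *Pcsk5*, *Col8a1*, *Edn1* and *Sema3g* (genes known from arterial endothelium among them), *Chrm3* stood at 64.1 CPM in NOD (88 UMIs over 23 of 200 barcodes) against 92.4 in CD1 (360 UMIs over 123 of 541), a log2 ratio of -0.53 (-0.88 to -0.19). In the cluster led by *Plpp1*, *Fabp4* and *Igfbp7* it stood at 3.16 CPM in NOD (8 UMIs over 4 of 347 barcodes) against 69.1 in CD1 (888 UMIs over 241 of 1511), a log2 ratio of -4.45 (-5.67 to -3.47). In the cluster led by *Ccdc85a*, *Kirrel3* and *Dnm3* it stood at 2.30 CPM in NOD (4 UMIs over 4 of 371 barcodes) against 116 in CD1 (189 UMIs over 32 of 400), a log2 ratio of -5.65 (-7.54 to -4.27). NOD stood lower in each of these 3 clusters. In NOD the *Mecom* cluster held most of the UMIs, and the levels of the other 2 were close to those of NOD T-like and B-like barcodes. An unnamed shallow cluster with endothelial markers, led by *Rflnb*, held 0 and 5 UMIs.

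**Figure D4:**
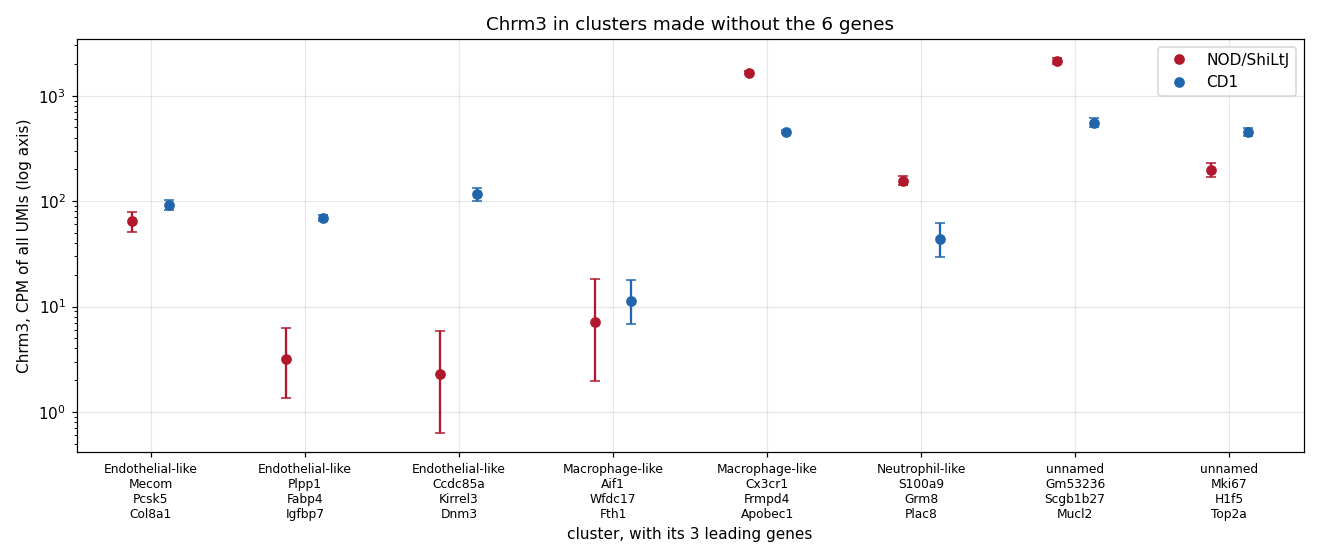
*Chrm3* (CPM, log axis) in the macrophage-like and endothelial-like clusters, and in others with at least 200 *Chrm3* UMIs, that held at least 50 barcodes in both libraries, with the 3 leading genes of each cluster under it. Points are sums over the barcodes of 1 library (NOD/ShiLtJ red, CD1 blue) with 95% Poisson intervals. NOD is above CD1 in the clusters led by *Gm53236*, *Cx3cr1* and *S100a9* and below it in the cluster led by *Mki67* and in the 3 endothelial-like clusters, by the widest gap in those led by *Plpp1* and *Ccdc85a*.

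Other measures were set beside this pattern. The macrophage markers summed to 60.1 CPM in NOD endothelial-like barcodes and 91.0 in those of CD1, whereas they summed to 13105 CPM in NOD macrophage-like barcodes. Salivary secretory transcripts summed to 404 CPM in NOD macrophage-like barcodes and 1070 in those of CD1, and their part in the *Chrm3* levels was not tested. Among CD1 endothelial-like barcodes of at least 5000 UMIs, the 117 with at least 4 *Chrm3* UMIs held 136 CPM of macrophage markers and the 1490 with none held 76.4, whereas in NOD the 8 with at least 4 held 0 CPM and the 516 with none held 56.0. Mural markers summed to 5.30 CPM in NOD endothelial-like barcodes and 17.3 in those of CD1. The CD1 endothelial-like barcodes with *Chrm3* also stood higher in *Robo2* (187 against 6.12 CPM) and *Acta2* (69.0 against 9.60 CPM), which are among the leading genes of the mural-like cluster. The 8 NOD ones stood higher in *Wdfy4* (503 against 2.32 CPM), a leading gene of dendritic-like barcodes, and in *Mki67* (271 against 1.62 CPM). They also stood higher in the endothelial marker *Cldn5* (696 against 22.2 CPM). These levels are sums over the 8 barcodes, and how many of them carried each gene was not counted. The 1069 NOD endothelial-like barcodes not called dividing held 101 of the 128 *Chrm3* UMIs. Dendritic markers summed to 311 CPM in NOD endothelial-like barcodes and 219 in those of CD1. T-cell markers summed to 84.4 and 3.97 CPM and B-cell markers to 16.6 and 1.34 CPM in the same barcodes. The part of macrophage, mural, dendritic, T-cell and B-cell transcripts in the endothelial-like values was not tested. Barcodes with 10 to 100 UMIs, taken as empty droplets, stood at 52.7 CPM of *Chrm3* in NOD and 141 in CD1. Scaled by the immunoglobulin genes *Igha* and *Jchain*, free RNA made up 1.78% of NOD and 0.889% of CD1 endothelial-like UMIs, worth 0.938 and 1.25 CPM of *Chrm3*. Scaled by salivary secretory genes it made up 19.8% and 2.54%, worth 10.4 of the 21.2 CPM in NOD and 3.58 of the 77.1 CPM in CD1, and with it taken off the log2 ratio was -2.49. The NOD endothelial-like value leaned on few barcodes: the highest held 27 of the 128 UMIs and the 5 highest 55.5%, and without the 5 highest in each library the log2 ratio was -2.90. In GENCODE M21 (GRCm38), *Chrm3* spans 485 kb (chr13:9875486-10360847, minus strand) and overlaps 4 genes on the same strand and 2 on the other, of which *Gm26861* alone was counted apart (9 and 17 UMIs). The sources used here do not give whether intronic reads entered the counts, and the part of strain sequence differences in the counts was not tested.

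Macrophage-like barcodes with many *Chrm3* UMIs also differed in other genes. Among those of at least 5000 UMIs, 224 in NOD had at least 5 *Chrm3* UMIs and 39 had none, and in CD1 546 and 646. This split was chosen after the values were seen and is a description. Macrophage markers summed to 13056 CPM in the NOD barcodes with *Chrm3* and 8281 in those without, and to 13593 and 13208 in CD1. The part of this difference in the genes below was not tested. In NOD the barcodes with *Chrm3* stood higher in *Il2ra* (179 against 13.7 CPM), *Tafa2* and *Mmp12* and lower in *Retnla* (0 against 298 CPM), *Vcan* (5.79 against 295), *Lyz1* and *Fn1*. In CD1 they stood higher in *Cxcl9* and in the proliferation genes *Top2a* (118 against 20.7 CPM) and *Mki67* (124 against 36.8) and lower in *Apoe* (6815 against 14500 CPM). Dividing macrophage-like barcodes, with at least 2 of 8 division genes, stood above the others in *Chrm3* in CD1 (581 against 402 CPM, log2 ratio 0.53) and below them in NOD (1133 against 1298, -0.20). Barcodes with over 10% mitochondrial UMIs stood lower in *Chrm3* in both strains (425 against 1377 CPM in NOD, 233 against 434 in CD1).

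The endothelial-like strain ratio differed in sign on the sides of the mitochondrial limit, which was not tested. In endothelial-like barcodes with no more than 10% mitochondrial UMIs, *Chrm3* stood at 16.6 CPM in NOD (94 UMIs) and 77.9 in CD1 (1438 UMIs), a log2 ratio of -2.23. In those above 10% (144 and 406 barcodes) the order was the other way, at 87.4 CPM in NOD (34 UMIs) and 60.1 in CD1 (56 UMIs), a log2 ratio of 0.54 (-0.12 to 1.18) whose interval held 0. In macrophage-like barcodes NOD stood higher on both sides of this limit, by log2 ratios of 1.67 and 0.87.

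Of the other 21 genes on a list of muscarinic signalling and fluid secretion, several differed in the same lineages. With *Chrm3* counted, 3 of the 13 genes with enough UMIs were past 2-fold with NOD higher in macrophage-like barcodes and none with NOD lower, 2 with NOD higher and 4 with NOD lower of 16 in endothelial-like, 4 and 1 of 14 in T-like, and 2 and 0 of 14 in NK-like barcodes. No interval of the list lay wholly below 0 in T-like barcodes, so the 1 with NOD lower rests on the fold alone. Over all genes the shares with NOD higher and lower were 8.31% and 5.64% in macrophage-like, 7.93% and 4.2% in endothelial-like, 9.39% and 8.29% in T-like and 5.91% and 4.17% in NK-like barcodes. The medians of the list were 0.14, 0.11, 0.59 and 0.25 in that order, beside 0.07, 0.07, 0.05 and 0.03 over all genes. In macrophage-like barcodes these were *Chrm3*, *Kcnn4*, a calcium-activated potassium channel (63.5 CPM in NOD, 7.83 in CD1, log2 ratio 3.02), and *Itpr1*, an inositol trisphosphate receptor (75.1 and 21.2 CPM, 1.82). In endothelial-like barcodes *Slc12a2*, the sodium-potassium-chloride cotransporter NKCC1, stood at 45.5 CPM in NOD against 344 in CD1, a log2 ratio of -2.92 (-3.10 to -2.74), on the same side as *Chrm3*. *Ano1*, a calcium-activated chloride channel, also stood lower in NOD (5 and 42 UMIs, -1.39). *Kcnn4* (35 and 31 UMIs, 1.86, 1.12 to 2.60) and *Plcb2*, a phospholipase C (17 and 14 UMIs, 1.96, 0.85 to 3.09), stood higher in NOD in the same lineage. T-cell markers summed there to 84.4 CPM in NOD and 3.97 in CD1, and the part of T-cell transcripts in these 2 values was not tested. *Chrm2*, the M2 receptor, was found in endothelial-like barcodes at 151 CPM in NOD against 96.3 in CD1 and at no more than 0.6 CPM in macrophage-like, T-like or NK-like barcodes. *Chrm5* stood at 12.8 CPM in NOD T-like barcodes and 15.6 in NOD NK-like barcodes, and *Chrm1*, *Chrm4* and *Chat*, the acetylcholine synthase gene, were at no more than 0.5 CPM in the 4 lineages.

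*Trim21* was the single member whose interval lay above 0 in both macrophage-like and endothelial-like barcodes. It stood at 21.3 CPM in NOD (92 UMIs, 17.2 to 26.1) against 11.3 in CD1 (226 UMIs, 9.85 to 12.8) in macrophage-like barcodes, a log2 ratio of 0.92 (0.55 to 1.28). In endothelial-like barcodes it stood at 26.0 (157 UMIs, 22.1 to 30.4) and 16.5 CPM (320 UMIs, 14.8 to 18.4), a log2 ratio of 0.65 (0.37 to 0.93). Both ratios were below 2-fold, and 9.32% and 13.7% of all genes tested had a higher one. Empty droplets stood at 21.4 CPM of *Trim21* in NOD and 11.6 in CD1, a log2 ratio of 0.89 (0.35 to 1.46). Scaled by *Igha* and *Jchain*, free RNA was worth 0.360 and 0.113 CPM of the gene in macrophage-like barcodes. Scaled by salivary secretory genes it was worth 30.8 CPM in NOD, above the level itself, and 2.47 in CD1. The part of free RNA in the *Trim21* ratios was not tested. In NK-like barcodes *Trim21* stood at 16.7 and 15.2 CPM (log2 ratio 0.13, -0.38 to 0.64) and in T-like barcodes at 20.4 and 16.7 (0.29, -0.62 to 1.36, with 10 UMIs in CD1). In the endothelial-like clusters led by *Mecom* and *Plpp1* the log2 ratios were 0.80 (0.20 to 1.38) and 0.76 (0.35 to 1.15), in the *Ccdc85a* cluster 0.53 (-0.22 to 1.30), and in the *Cx3cr1* macrophage-like cluster 0.91 (0.45 to 1.34).

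*Trim21* was sparse in every lineage, with no more than 6 UMIs in any barcode. Of the NOD lineages it was highest in endothelial-like barcodes (26.0 CPM, 22.1 to 30.4) and lowest, among lineages of at least 50 barcodes, in B-like barcodes (11.6 CPM, 8.74 to 15.1). These 2 intervals did not overlap, although no 2 neighbours in the order of lineages differed beyond counting error. NOD T-like barcodes with *Cd8* and no *Cd4* UMI stood at 26.3 CPM and those with *Cd4* and no *Cd8* UMI at 18.7, a log2 ratio of the second over the first of -0.49 (-0.91 to -0.07). At equal depth of 2000 UMIs, 4.67% of NOD (2.95 to 6.99) and 2.33% of CD1 (1.75 to 3.05) macrophage-like barcodes had a *Trim21* UMI. In endothelial-like barcodes the shares were 4.58% (3.29 to 6.19) and 3.56% (2.85 to 4.38). The intervals of the strains overlapped in both lineages.

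Because *Trim21* is known to be induced by interferon, its promoter was searched in the RefSeq sequences of GRCm38.p6, which are those of C57BL/6J and of neither strain here. All 6 genes matched by symbol, and windows of 250 bases before to 30 bases after the start were read on both strands for the core of the interferon-stimulated response element, taken as GAAA, any 2 bases and GAAA again. The windows of *Trim21* (chr7:102565453-102565732, minus strand) and *Ro60* (chr1:143777022-143777301, minus strand) are shown because their products share the Ro name, whereas the strain ratios of the genes differed. Capitals mark the motif.
Trim21 promoter: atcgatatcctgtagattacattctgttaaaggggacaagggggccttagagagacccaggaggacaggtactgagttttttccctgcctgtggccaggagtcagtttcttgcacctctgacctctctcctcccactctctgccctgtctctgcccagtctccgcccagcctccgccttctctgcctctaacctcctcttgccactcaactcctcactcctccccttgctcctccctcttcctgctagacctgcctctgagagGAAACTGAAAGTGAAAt
Ro60 promoter: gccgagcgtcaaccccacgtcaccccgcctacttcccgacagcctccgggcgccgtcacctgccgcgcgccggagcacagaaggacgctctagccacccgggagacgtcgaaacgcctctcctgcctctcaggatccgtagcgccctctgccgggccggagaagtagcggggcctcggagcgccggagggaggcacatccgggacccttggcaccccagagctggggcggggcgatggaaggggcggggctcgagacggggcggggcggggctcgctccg

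The *Trim21* window held the motif in 2 overlapping copies, from base 14 to base 29 after the start, and the windows of the other 5 genes held none. TTCNNNGAA, the core of the gamma-activated site, was in none of the 6. The first motif was in 3.80% of all 27025 genes with a window (1028 genes) and in 11 of the 22 interferon response genes that had one. The sites of the 3 genes with the motif among the 11 named interferon response genes are set beside that of *Trim21*, with up to 5 bases on each side and capitals as above (*Ifit1* chr19:34640780-34640818, plus strand, *Ifit3* chr19:34583368-34583421, plus strand, *Rsad2* chr12:26456558-26456577, minus strand, *Trim21* chr7:102565453-102565474, minus strand).
Trim21 site: gagagGAAACTGAAAGTGAAAt
Ifit1 site: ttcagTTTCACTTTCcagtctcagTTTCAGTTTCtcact
Ifit3 site: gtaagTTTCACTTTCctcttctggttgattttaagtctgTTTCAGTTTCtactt
Rsad2 site: ccaacTTTCATTTTCagaaa

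In *Ifit1*, *Ifit3* and *Rsad2* the motif lay 76 to 156 bases before the start and read as its reverse complement (TTTC, any 2 bases, TTTC), whereas in *Trim21* it lay after the start. A match is a description of the letters and shows no binding.

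The interferon response list lay on the same side as *Trim21* in these libraries, and by a wider margin. Of its 28 genes, 21 were past 2-fold with NOD higher in macrophage-like barcodes, 12 in endothelial-like, 12 in T-like and 9 of 27 in NK-like barcodes, and none was past it with NOD lower, beside 8.31%, 7.93%, 9.39% and 5.91% of all genes with NOD higher. Their median log2 ratios were 1.43, 0.93, 0.83 and 0.68 in that order, beside medians of 0.07, 0.07, 0.05 and 0.03 over all genes tested. Examples in macrophage-like barcodes were *Rsad2*, an antiviral enzyme (83.6 CPM in NOD, 14.2 in CD1, log2 ratio 2.56), and *Ifit1*, an RNA-binding antiviral protein (27.8 and 6.98 CPM, 1.99). *Trim21* lay below the median of the list in each of the 4 lineages. *Irf7*, an interferon-induced transcription factor that Trim21 is known to target, stood at 67.6 CPM in NOD against 24.1 in CD1 in macrophage-like barcodes, a log2 ratio of 1.49 (1.27 to 1.70). It was the single gene past 2-fold there among the 17 of the *Trim21* list of ubiquitin partners and substrates, whose median log2 ratio was 0.05. In T-like barcodes 2 genes of that list were past it, *Irf7* (2.37, with 4 UMIs in CD1) and *Daxx* (1.11), and in endothelial-like and NK-like barcodes none.

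**Figure D5:**
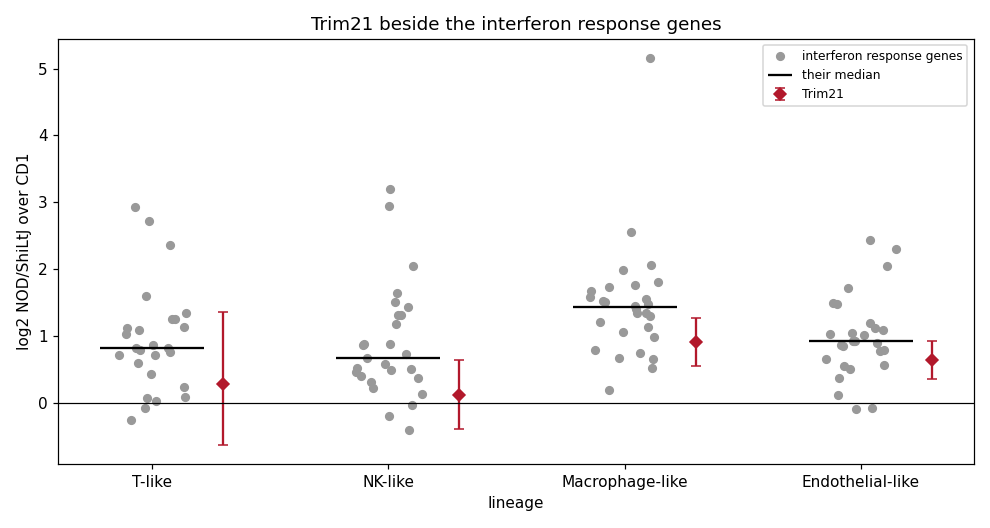
Log2 ratio of NOD/ShiLtJ over CD1 for *Trim21* (red diamonds, 95% counting intervals) beside the genes of the interferon response list (grey points, horizontal bar at their median) in 4 lineages. Genes with no UMI in a library are not drawn, which leaves 26 to 28 points per lineage. All 28 genes lie above 0 in macrophage-like barcodes, and *Trim21* lies below the median bar in every lineage.

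*Ssb*, which codes for La, was found in every lineage at levels within 2-fold of each other in the 4 lineages compared, and did not differ between the strains beyond counting error within them. It stood highest in T-like barcodes (228 CPM in NOD, 250 in CD1), then NK-like (214 and 228) and endothelial-like (187 and 198), and lowest of these in macrophage-like barcodes (132 and 129). The order was the same in both strains, and the step from NK-like to endothelial-like barcodes lay beyond counting error in each. The log2 ratios of NOD over CD1 were -0.13 (-0.37 to 0.11), -0.09 (-0.22 to 0.04), -0.08 (-0.18 to 0.02) and 0.03 (-0.10 to 0.16). Dividing macrophage-like barcodes held more *Ssb* than the others in both strains, 199 against 126 CPM in NOD (log2 ratio 0.66, 0.29 to 1.02) and 199 against 123 in CD1 (0.69, 0.52 to 0.86), as did dividing NOD T-like barcodes (285 against 222, 0.36, 0.19 to 0.53). *Ssb* overlaps *Mettl5* on the other strand, which was counted apart (796 UMIs in NOD and 923 in CD1).

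*Ro60* was higher in endothelial-like than in leukocyte lineages. It stood at 88.6 CPM in NOD (535 UMIs, 81.2 to 96.4) against 95.9 in CD1 (1858 UMIs, 91.6 to 100.3) in endothelial-like barcodes, a log2 ratio of -0.11 (-0.26 to 0.03). Macrophage-like barcodes stood at 25.2 and 23.6 CPM, NK-like at 22.5 and 21.6, and T-like at 22.4 and 16.7, and none of these strain ratios differed from 0 beyond counting error. Macrophage-like barcodes were lower than endothelial-like ones by a log2 ratio of -1.81 in NOD (-2.12 to -1.51) and -2.02 in CD1 (-2.17 to -1.88). NOD fibroblast-like barcodes (84.3 CPM, 62.2 to 112) did not differ from endothelial-like ones beyond counting error. The wider list of 20 Ro and La ribonucleoprotein genes included the La-related *Larp* genes and the *Lsm* genes, whose products also bind oligo-U ends. In T-like, NK-like, macrophage-like and endothelial-like barcodes its medians were -0.05, -0.09, 0.10 and -0.19. Of the 19 genes with enough UMIs none was past 2-fold, beside 17.7%, 10.1%, 13.9% and 12.1% of all genes in that order. In endothelial-like barcodes 9 intervals lay wholly below 0 and 1 above it, beside 19.0% and 28.1% of all genes. In macrophage-like barcodes 0 lay below and 5 above, beside 13.2% and 24.4%. NK-like barcodes had 4 below and 3 above (14.5% and 19.7%) and T-like barcodes 1 and 0 (7.02% and 11.5%).

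*Sptan1* was highest in endothelial-like barcodes, at 524 CPM in NOD (3163 UMIs, 506 to 542) against 506 in CD1 (9815 UMIs, 496 to 517), a log2 ratio of 0.05 (-0.01 to 0.11). Macrophage-like barcodes stood at 72.7 and 65.7 CPM, lower than endothelial-like ones by log2 ratios of -2.85 and -2.95. T-like, NK-like and NOD B-like barcodes lay between, from 85.4 to 120 CPM. The strain ratios were 0.15 (-0.04 to 0.33) in macrophage-like, 0.11 (-0.08 to 0.31) in NK-like and 0.38 (-0.02 to 0.82) in T-like barcodes, none beyond counting error. *Sptbn1*, the beta subunit that pairs with alpha-fodrin, followed the same order, at 2473 and 2301 CPM in endothelial-like and 43.1 and 40.5 in macrophage-like barcodes. *Capn2*, a calpain subunit, stood at 28.7 and 14.3 CPM in macrophage-like barcodes (log2 ratio 1.01). Of the 22 genes on the spectrin list, 17 had enough UMIs there, and *Capn2* was the single one past 2-fold. That list had 1 gene past it with NOD higher and 2 with NOD lower of 16 in endothelial-like barcodes, 0 and 1 of 15 in T-like and none of 13 in NK-like barcodes. Over all genes the shares with NOD higher and lower were 8.31% and 5.64% in macrophage-like and 7.93% and 4.2% in endothelial-like barcodes. They were 9.39% and 8.29% in T-like and 5.91% and 4.17% in NK-like barcodes.

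*Ica1* stood high in endothelial-like and, in CD1, epithelial-like barcodes, and at no more than 6.39 CPM in the other lineages with at least 50 barcodes. Endothelial-like barcodes stood at 141 CPM in NOD (852 UMIs, 132 to 151) against 145 in CD1 (2801 UMIs, 139 to 150), a log2 ratio of -0.04 (-0.15 to 0.08). CD1 epithelial-like barcodes stood at 136 CPM (38 UMIs, 95.9 to 186), which did not differ from the endothelial-like level beyond counting error. The 2 strains diverged among endothelial-like clusters, with 142 CPM in NOD against 119 in CD1 in the *Mecom* cluster (log2 ratio 0.25, 0.00 to 0.50), 120 and 147 in the *Plpp1* cluster (-0.29, -0.47 to -0.11) and 184 and 243 in the *Ccdc85a* cluster (-0.41, -0.62 to -0.19). In macrophage-like barcodes 2 UMIs were seen in NOD (0.463 CPM) and 46 in CD1 (2.29 CPM), a log2 ratio of -2.31 (-5.40 to -0.37) that rests on these few UMIs. In clusters named by the marker lists the ratio was -0.93 and no longer past 2-fold. In NOD T-like barcodes the gene held 36 UMIs, of which 23 lay in barcodes with *Cd4* and no *Cd8* UMI (3.41 CPM) and 0 in the 427 barcodes with *Cd8* and no *Cd4* UMI. Of the 7 genes listed as relatives or partners of *Ica1*, among them *Pick1* and *Rab2a*, all 7 had enough UMIs in macrophage-like barcodes and 6 in each other lineage. None of these was past 2-fold, beside 13.9% of all genes in macrophage-like, 12.1% in endothelial-like, 17.7% in T-like and 10.1% in NK-like barcodes.

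Genes whose levels ran most alike to each member over 12 lineage sums (T-like, NK-like, macrophage-like and endothelial-like sums of both libraries, with B-like, plasma-like, fibroblast-like and epithelial-like sums of at least 50 barcodes) were named by Pearson correlation of log2 CPM with 10 CPM added, out of 13018 genes. The sums share libraries and depth, so these are descriptions, and r lay between 0.93 and 0.99 for all genes named. *Trim21* ran with *Gm12250*, *Dtx3l* and *Cflar*, *Ro60* with *Lrrc58*, *Nbeal1* and *Rab12*, and *Ssb* with *Synj2bp*, *Nmb* and *Ing1*. *Chrm3* ran with *Tfe3*, *Cebpa* and *Creb5*, *Sptan1* with *Pcnx1*, *Gm41077* and *Triobp*, and *Ica1* with *Gm53311*, *Galnt18* and *Prom1*. The correlation does not measure the size of the change over the sums. *Ica1* spanned 3.95 log2 units, *Gm53311* 0.98, *Prom1* 1.28 and *Galnt18* 4.95. *Chrm3* spanned 7.02 and *Tfe3* 1.45, and *Sptan1* 3.15 and *Gm41077* 1.19.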

How the data were processed

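The scRNAseq values start from counts of UMIs per gene and barcode that the authors deposited for every barcode, with no cell filter or scaling in the files. The submitters' processing notes name Cell Ranger 8.0.0, GRCm39, Seurat 5.0.1 and R 4.3.1. Depth came to 52790319 UMIs in 1298073 barcodes for NOD and to 56483149 in 1331542 for CD1. The 6 genes, the 13 marker lists and the 7 related lists were chosen with earlier results of these data known, and the assignment limits after marker counts were seen.

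For every lineage and library the UMIs of a gene were added up and divided by all UMIs of those barcodes to give CPM, with an exact Poisson interval. Intervals of log2 ratios came from the conditional binomial distribution, and those of shares from the Clopper-Pearson method. Genes with at least 20 UMIs in a lineage were taken as measured. A gene at 0 was put at 3 counts for the fold, which is 5.02 CPM in CD1 T-like barcodes. A gene with few UMIs in NOD and none in CD1 could therefore count there as NOD lower. Genes of the related lists named in the text were past 2-fold with an interval leaving out 0, at most 4 per list and lineage by the bound nearest 0. Others, such as *Sptbn1*, *Chrm2* and *Ano1*, and the genes that lead clusters, were chosen after their values were seen. Clusters were made in scanpy 1.11.5 (2000 variable genes, 30 components, 15 neighbours, Leiden resolution 1), with names set while values were known and none given where secretory genes outnumbered a list's own markers among the leading 10 genes. On counts simulated with Poisson error alone and 200 changed genes, 95.9% of intervals held the true ratio over 14626 genes in macrophage-like barcodes. The intervals assume that same error, so this checks their computation. It does not cover the uneven spread of UMIs over barcodes or the spread between mice. Figures were drawn with matplotlib 3.10.9 and intervals computed with scipy 1.17.1 in Python 3.11.15. The list of other autoantigen genes (13 of 14 found in the files) had *Bpifa2* past 2-fold with NOD higher in macrophage-like barcodes (log2 ratio 1.87), *Car6* with NOD lower in macrophage-like (-1.21), endothelial-like (-2.10) and NK-like barcodes (-2.33), and none in T-like barcodes. Of this list 12 genes had enough UMIs in macrophage-like and 11 in each other lineage. The shares of all genes past 2-fold were 13.9% in macrophage-like, 12.1% in endothelial-like, 10.1% in NK-like and 17.7% in T-like barcodes. Alternatives changed the depth limits, the mitochondrial limit, doublets, lineage assignment, scaling, barcode weight and free RNA. Those on immunoglobulin-scaled free RNA, barcodes with most UMIs, shared barcodes and deep barcodes were added after the data were seen.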

Additional observations from a re-analysis of the deposited data

Results flagged for a closer look

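*Chrm3* differed between the strains in opposite directions in 2 lineages. In macrophage-like barcodes the log2 ratio of NOD over CD1 was 1.62 (5545 and 8372 UMIs) and in endothelial-like barcodes it was -1.86 (128 and 1494 UMIs). With 1 library per strain the difference between these ratios was not tested. It kept these directions under all 13 alternatives in endothelial-like barcodes and under the 12 that gave a value in macrophage-like barcodes. Among endothelial-like barcodes with over 10% mitochondrial UMIs, which hold 34 of the 128 NOD UMIs, the ratio was 0.54 (-0.12 to 1.18), in the other direction.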

How the results depend on the processing

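No paired analysis was possible because each strain has 1 library and no replicate numbers. Of 283 values under alternatives, 242 stayed within a set limit of the main value and 41 moved past it, and no value past 2-fold changed its direction. The limit was the counting interval of the main value. For the shares of all genes past 2-fold, which have no such interval, it was a fixed ratio to the main share. Values below are log2 ratios of NOD over CD1. *Trim21* stayed between 0.76 and 1.20 in macrophage-like and between 0.56 and 0.96 in endothelial-like barcodes. *Chrm3* in macrophage-like barcodes was 1.10 in barcodes with no UMI of another list, 1.68 in those of at least 5000 UMIs, 1.76 in clusters, 1.53 with median-of-ratios scaling and 1.42 with each barcode weighted equally. In endothelial-like barcodes it was -2.23 at no more than 10% mitochondrial UMIs, -2.18 without the highest Scrublet scores, -2.14 in clusters, -2.49 with free RNA set by secretory genes and -2.90 without the 5 barcodes with most UMIs. In NK-like barcodes it was 2.00 without the highest Scrublet scores and -0.62 with equal weights, on 36 UMIs.

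Barcodes with no UMI of another list were few (404 and 13 T-like, 46 and 17 NK-like, 156 and 787 macrophage-like, 172 and 699 endothelial-like). They gave *Ssb* -0.41 and *Sptan1* -0.53 in T-like, *Ro60* -0.38 and *Sptan1* -0.23 in NK-like, *Ro60* -0.89 and *Sptan1* -0.24 in macrophage-like, and *Trim21* 0.96, *Ro60* -0.27, *Ssb* -0.46 and *Ica1* 0.38 in endothelial-like barcodes. Free RNA set by secretory genes gave *Ro60* 0.13, *Sptan1* 0.29 and *Ica1* 0.24 in endothelial-like barcodes and no value in macrophage-like ones, where it came to 144% of the NOD UMIs. *Ica1* in macrophage-like barcodes ran from -3.15 to -0.93 and was not past 2-fold in clusters. *Ro60* in T-like barcodes was 2.50 without the 5 barcodes with most of its UMIs. *Sptan1* was -0.045 in clusters and -0.12 with equal weights in macrophage-like barcodes, and -0.043 with median-of-ratios scaling and -0.011 with equal weights in endothelial-like ones. The cause of these shifts was not tested.

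The share of all genes past 2-fold was 33.7% in T-like and 17.6% in NK-like barcodes for genes with at least 5 UMIs, and 10.7%, 4.23%, 6.71% and 5.63% in T-like, NK-like, macrophage-like and endothelial-like barcodes for those with at least 100. The share of macrophage-like barcodes with *Trim21* was 4.99 percentage points higher in NOD without thinning. That of *Chrm3* was 14.8 points higher at 1000 UMIs and 4.56 without thinning, and in endothelial-like barcodes it differed by -4.18 and -11.1 points. Counts of CD1 T-like barcodes (75) limited all values of that lineage.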
